A study of Drosophila melanogaster with 6 samples.

Results

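The proteasome genes of adult Drosophila testes were followed in 3 control libraries and 3 libraries with miR-2b-1 overexpression. Members were taken by FlyBase symbol alone, namely every gene whose symbol starts with Prosalpha or Prosbeta, or with Rpt or Rpn followed by a digit. This gave 48 of the 17559 genes in the count files. Of these, 32 were canonical subunits and 16 were paralogs whose symbols end in T, T1, T2, R, R1 or R2, called testis paralogs here. The control carried actin5C-Gal4 over w1118, and the overexpression genotype carried actin5C-Gal4 with UAS-miR-2b-1. All 6 libraries therefore carried the actin5C-Gal4 driver, which drives GAL4 in most cell types. The flies were F1 males from crosses at 28 °C, aged 3 to 5 days, and each library was made from a pool of dissected testes. The study's data description names the control OreR in one place, while its methods and the labels give w1118. The control and overexpression flies thus had different parents, and effects of strain and of the transgene cannot be told apart.

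The proteasome is the protease that degrades proteins tagged with ubiquitin. Its 20S core is a barrel of stacked rings, with alpha subunits forming the outer gated rings and beta subunits forming the inner rings that hold the active sites. The 19S regulatory particle caps the core. In it, the Rpt ATPases unfold the substrate and thread it into the barrel, and Rpn subunits bind ubiquitin and remove it. The Rpn subunits form the lid and, together with the Rpt ATPases, the base. Drosophila carries extra copies of several subunit genes that are expressed in the male germ line, and the 20S paralog Prosalpha6T is known to be needed for sperm differentiation.

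The labelled tissue was checked with marker genes. All 9 germ line markers found in the files were detected. Together they summed to 7685, 8406.5 and 8196 CPM (counts scaled to library size) in the control (replicates 1, 2 and 3). Under overexpression they summed to 5915, 7568 and 6690.5 CPM, each below every control library. Most of each sum came from Mst87F, dj, ProtB and ProtA, so it does not stand for the list as a whole. Their log2 fold changes were negative, as was that of can, while those of bam, aly, sa and fzo were positive. The mir-2b-1 gene itself had 0 counts in each of the 6 libraries, so it could not check the labels. Total counts on genes ran from 18047619 to 27789620 per library. The libraries differed in RNA from the neighbouring accessory gland. Its 22 listed genes, ejaculatory duct genes included, held 0.882%, 0.0163% and 0.539% of all counts in the control (replicates 1, 2 and 3) and 0.0419%, 0.111% and 0.977% under overexpression, with Acp95EF at 0 throughout. The 7 muscle genes found summed to 206 to 421 CPM in the control and to 124 to 140 CPM under overexpression. Of these 7, 4 were called lower (adjusted p under 0.05 in edgeR), beside 2.81% of all genes called in either direction. Of the germ line, cyst and hub cell, fat body and accessory gland markers, 0 were called. At an unadjusted p under 0.05 in edgeR, 4 of the 9 germ line markers passed, against 14.7% of all genes. Of these, aly and fzo were higher under overexpression (log2 fold changes 0.39 and 0.43), and dj and ProtA were lower (-0.35 and -0.36). Because these were bulk samples, fewer cells of a type and less RNA per cell cannot be told apart in any of the levels below.

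The 16 testis paralogs stood opposite 12 of the canonical subunits, and 20 canonical subunits had none. All 4 X-linked canonical subunits, namely Prosalpha4, Rpt3, Rpt4 and Rpt6, had a testis paralog, as did 8 of the 28 autosomal ones. The 5 paralogs of the X-linked subunits were all autosomal. In the other direction, 2 paralogs of autosomal subunits, Prosbeta2R1 and Rpn13R, lay on the X chromosome. Gene models also differed, and coordinates below are those of the Ensembl annotation of the BDGP6 (dm6) assembly. In it, 10 of the 16 paralogs had fewer introns than their canonical subunit, 6 had as many and 0 had more, and 6 paralogs had no intron against 4 of the 32 canonical genes. Pairs mostly lay apart, with 10 of the 16 paralogs on another chromosome arm than their canonical subunit. Close neighbours were Prosalpha1 and Prosalpha1R, with 1734 bases between them on 2R, and Prosbeta4R1 and Prosbeta4R2, with 1467 bases between them on 2L. Exons of 13 canonical subunits and of 3 paralogs overlapped exons of another gene. The overlap was widest in Rpn9 (15.7% of its exon bases), and the strand setting of the counting is not given in the sources used here.

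Levels of different genes were compared as RPKM, the TMM-scaled CPM divided by the length of all exons in kilobases. For the 20 canonical subunits with no testis paralog, the median level was 104 to 129 RPKM in the 6 libraries. It was 26.3 to 42.1 RPKM for the 11 canonical subunits with a paralog, Prosalpha1 left out, a fold of 2.51 to 4.69 between the medians. Of the 15 paralogs outside the Prosalpha1 position, 12 were above their canonical subunit in all 6 libraries, 2 were below it in all 6, and Prosbeta5R2 was above it in 4 of 6. With the longest transcript as the length 12 paralogs were above in all 6 libraries, and without length scaling 13 were. These ratios compare transcripts within a library, so they do not depend on its depth or normalization.

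**Figure D1:**
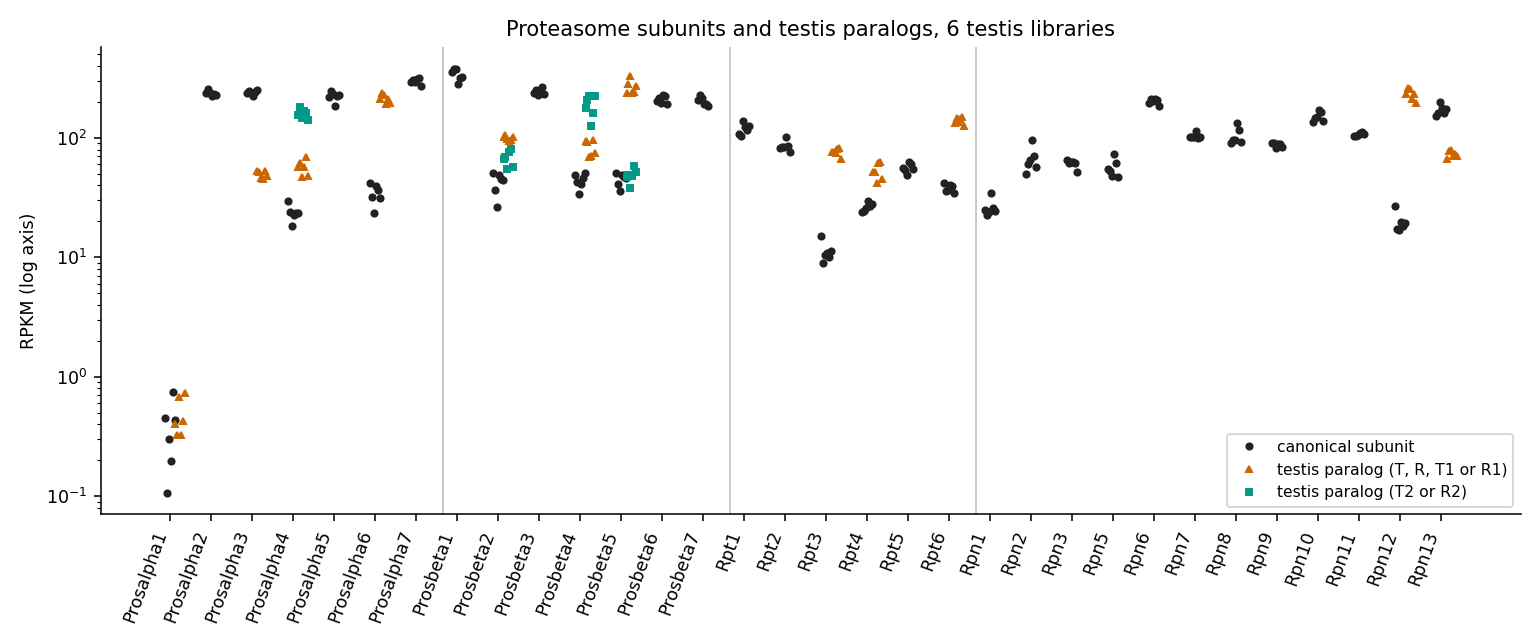
Level of each canonical subunit (circles) and its testis paralogs (triangles and squares) in RPKM on a log axis, with 1 point per library for the 6 libraries, left to right control 1 to 3 and overexpression 1 to 3. Of the 11 measurable canonical subunits with a paralog, 9 have means of 11.2 to 45.0 RPKM, while Prosalpha3 and Rpn13 have 241 and 172 RPKM.

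In the alpha ring, the gated outer ring, the canonical genes without a paralog were high. Prosalpha2 had 224 to 258 RPKM, Prosalpha5 184 to 246 RPKM and Prosalpha7 271 to 320.0 RPKM over the 6 libraries. Prosalpha6 (chromosome 2L, 10221351 to 10222546) was well under them. It had 41.7, 31.8 and 23.3 RPKM in the control and 39.7, 36.7 and 31.5 RPKM under overexpression, in each case for replicates 1, 2 and 3. Its paralog Prosalpha6T (chromosome 2L, 13232039 to 13233058, no intron) had 212, 236 and 227 RPKM in the control and 191, 214 and 196 RPKM under overexpression. The paralog was above the canonical gene in every library, with a ratio of 6.52 ± 1.83 (SD, n = 6), and its mean lay within the range of the 20S subunits that have no paralog.

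Prosalpha4 on the X chromosome (16276270 to 16277587) had paralogs on 3R and 2R. The canonical gene had 29.6, 24.2 and 18.2 RPKM in the control and 22.5, 23.6 and 23.5 RPKM under overexpression. Prosalpha4T2 (chromosome 2R, 24500780 to 24502277) carried most of the transcript at this position. It had 155, 182 and 146 RPKM in the control and 168, 161 and 140.3 RPKM under overexpression, a ratio of 6.84 ± 1.05 (SD, n = 6). Prosalpha4T1 (chromosome 3R, 20748184 to 20749074, no intron) was between them. It had 56.9, 61.5 and 47.4 RPKM in the control and 57.6, 69.2 and 48.0 RPKM under overexpression, a ratio of 2.43 ± 0.38 (SD, n = 6).

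Prosalpha3 (chromosome 2R, 20994900 to 20996118) went the other way. The canonical gene had 239, 248 and 239 RPKM in the control and 226, 243 and 252 RPKM under overexpression. Prosalpha3T (chromosome 3R, 31122527 to 31123415, no intron) had 52.4, 52.1 and 46.5 RPKM in the control and 45.0, 52.7 and 48.2 RPKM under overexpression. The paralog held a steady minor part, with a ratio of 0.205 ± 0.0122 (SD, n = 6), the narrowest relative spread of the 15 pairs.

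Prosalpha1 (chromosome 2R, 7827303 to 7828678) and Prosalpha1R (chromosome 2R, 7830413 to 7831771) could not be measured. Prosalpha1 had 8, 2 and 5 counts in the control libraries and 5, 16 and 12 under overexpression. Prosalpha1R had 7, 6 and 11 counts in the control and 8, 9 and 20 under overexpression. Every other member had a mean of at least 378 counts per library. The neighbouring copies have 3 introns each and exon lengths of 969 and 952 bases, and 17 exon bases of each overlap a gene on the opposite strand, phr and CG18853 in turn. How reads that map to both copies were counted is not given in the sources used here, and its part in these low counts was not tested. Both genes are left out of the summaries of levels below.

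The beta ring holds the proteolytic sites in Prosbeta1 (caspase-like), Prosbeta2 (trypsin-like) and Prosbeta5 (chymotrypsin-like). Prosbeta1 had no testis paralog and had the highest mean of all members, at 340.3 ± 38.4 RPKM (SD, n = 6). Prosbeta3, Prosbeta6 and Prosbeta7, which also have none, had 229.8 to 268 RPKM, 193 to 227 RPKM and 184 to 229 RPKM in turn.

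Prosbeta5 (chromosome 2R, 10819978 to 10821178) had 51.0, 40.9 and 36.1 RPKM in the control and 48.5, 47.2 and 46.3 RPKM under overexpression. Prosbeta5R1 (chromosome 2R, 23308654 to 23309816) had 238, 284 and 329 RPKM in the control and 239, 240.2 and 273 RPKM under overexpression. This paralog was above the canonical gene in every library, with a ratio of 6.11 ± 1.69 (SD, n = 6). The other paralog, Prosbeta5R2 (chromosome 2L, 17990418 to 17991951, no intron), had 47.5, 48.8 and 38.4 RPKM in the control and 48.0, 57.9 and 51.7 RPKM under overexpression. Its ratio of 1.09 ± 0.115 (SD, n = 6) fell under 1 in control replicate 1 and in overexpression replicate 1, so Prosbeta5R2 and Prosbeta5 did not differ in level beyond the spread between libraries.

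Prosbeta2 (chromosome 3L, 14999951 to 15001319) had 51.0, 37.0 and 26.3 RPKM in the control and 49.4, 45.4 and 44.6 RPKM under overexpression. Prosbeta2R1 (chromosome X, 5808954 to 5810158) had 103, 105 and 98.2 RPKM in the control and 93.7, 96.7 and 102 RPKM under overexpression. Prosbeta2R2 (chromosome 3R, 5217751 to 5219528) had 66.7, 69.4 and 55.5 RPKM in the control and 77.0, 80.7 and 57.6 RPKM under overexpression. Both paralogs were above the canonical gene in all 6 libraries, with ratios of 2.48 ± 0.695 (SD, n = 6) and 1.65 ± 0.326 (SD, n = 6). Relative to its mean the canonical gene varied most of the 3, and it was lowest in control replicate 3 and highest in control replicate 1.

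Prosbeta4 (chromosome 2L, 16731180 to 16732133), a structural subunit of the ring, had 48.9, 42.5 and 33.6 RPKM in the control and 41.1, 46.4 and 51.1 RPKM under overexpression. Its paralogs are neighbours on 2L. Prosbeta4R1 (2653046 to 2653926) had 94.7, 92.9 and 69.4 RPKM in the control and 69.98, 95.4 and 74.2 RPKM under overexpression. Prosbeta4R2 (2655394 to 2657102) had 179, 208 and 226 RPKM in the control and 127, 162 and 224 RPKM under overexpression. The neighbours did not vary in step. In overexpression replicate 3, Prosbeta4R2 had its second highest value while Prosbeta4R1 was under its own mean. Their ratios to Prosbeta4 were 1.90 ± 0.274 (SD, n = 6) and 4.37 ± 1.32 (SD, n = 6). Prosbeta4R2 shares 69 exon bases on its own strand with the receptor gene Or23a.

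Of the 6 Rpt ATPases, which form the unfolding ring, the 3 on the X chromosome have paralogs and the 3 autosomal ones have none. Rpt1 had 103 to 139.5 RPKM, Rpt2 76.6 to 103 RPKM and Rpt5 48.6 to 62.99 RPKM. Rpt3 (chromosome X, 11125101 to 11126785) was the lowest measurable member of the whole set. It had 15.2, 8.97 and 10.5 RPKM in the control and 10.9, 10.1 and 11.4 RPKM under overexpression. Rpt3R (chromosome 3R, 9754735 to 9756510) had 76.8, 76.5 and 74.2 RPKM in the control and 80.7, 83.1 and 67.2 RPKM under overexpression, a ratio of 7.04 ± 1.35 (SD, n = 6). Rpt3 in control replicate 1 stood above the other libraries.

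Rpt4 (chromosome X, 6289470 to 6291245) had 24.0, 24.2 and 25.8 RPKM in the control and 29.7, 26.8 and 28.0 RPKM under overexpression. Rpt4R (chromosome 3L, 11941912 to 11943485) had 52.3, 51.7 and 41.9 RPKM in the control and 61.8, 62.8 and 45.5 RPKM under overexpression. Its ratio of 2.00 ± 0.303 (SD, n = 6) was the lowest of the ATPase pairs. Rpt6 (chromosome X, 21316052 to 21317663) had 42.1, 36.2 and 36.5 RPKM in the control and 40.4, 39.9 and 34.7 RPKM under overexpression. Rpt6R (chromosome 3R, 30582198 to 30583697) had 133, 147 and 136 RPKM in the control and 143, 151 and 126 RPKM under overexpression, a ratio of 3.64 ± 0.297 (SD, n = 6). All 3 ATPase paralogs were above their canonical gene in every library.

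Among the non-ATPase subunits, paralogs were found for Rpn12 and Rpn13 and not for the other 10. Rpn12 (chromosome 3L, 16583028 to 16584022), a lid subunit, had 26.8, 17.4 and 17.0 RPKM in the control and 19.6, 18.3 and 19.5 RPKM under overexpression. Rpn12R (chromosome 3L, 15041631 to 15042570), which like Rpn12 has no intron, had 231, 262 and 257 RPKM in the control and 212, 233 and 197 RPKM under overexpression. The ratio of 12.1 ± 2.69 (SD, n = 6) was the highest of the 15 pairs. Rpn13 (chromosome 2R, 13958545 to 13960404), a ubiquitin receptor of the base, had 151, 163 and 199 RPKM in the control and 178, 162 and 176 RPKM under overexpression. Rpn13R (chromosome X, 5131898 to 5132985, no intron) had 66.8, 78.3 and 79.2 RPKM in the control and 71.2, 72.9 and 71.2 RPKM under overexpression. The canonical gene was higher in every library, with a ratio of 0.429 ± 0.0338 (SD, n = 6).

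The 10 other Rpn genes covered a wide range. Rpn6, a lid subunit, was the highest at 203 ± 11.2 RPKM (SD, n = 6), followed by Rpn10, like Rpn13 a ubiquitin receptor, at 151 ± 13.8 RPKM (SD, n = 6). Rpn11, the lid enzyme that cuts ubiquitin off the substrate, had 108 ± 3.35 RPKM (SD, n = 6), Rpn8, its partner, 104 ± 17.1 RPKM (SD, n = 6), and Rpn7 104 ± 5.05 RPKM (SD, n = 6). The library ranges of Rpn11, Rpn8 and Rpn7 overlapped, so these neighbours in the order did not differ beyond their spread. Rpn9 had 87.5 ± 3.93 RPKM (SD, n = 6), Rpn2 66.8 ± 16.5 RPKM (SD, n = 6), Rpn3 60.9 ± 4.76 RPKM (SD, n = 6) and Rpn5 56.2 ± 9.91 RPKM (SD, n = 6). Rpn1, a scaffold of the base, was the lowest of them at 26.1 ± 4.35 RPKM (SD, n = 6).

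**Figure D2:**
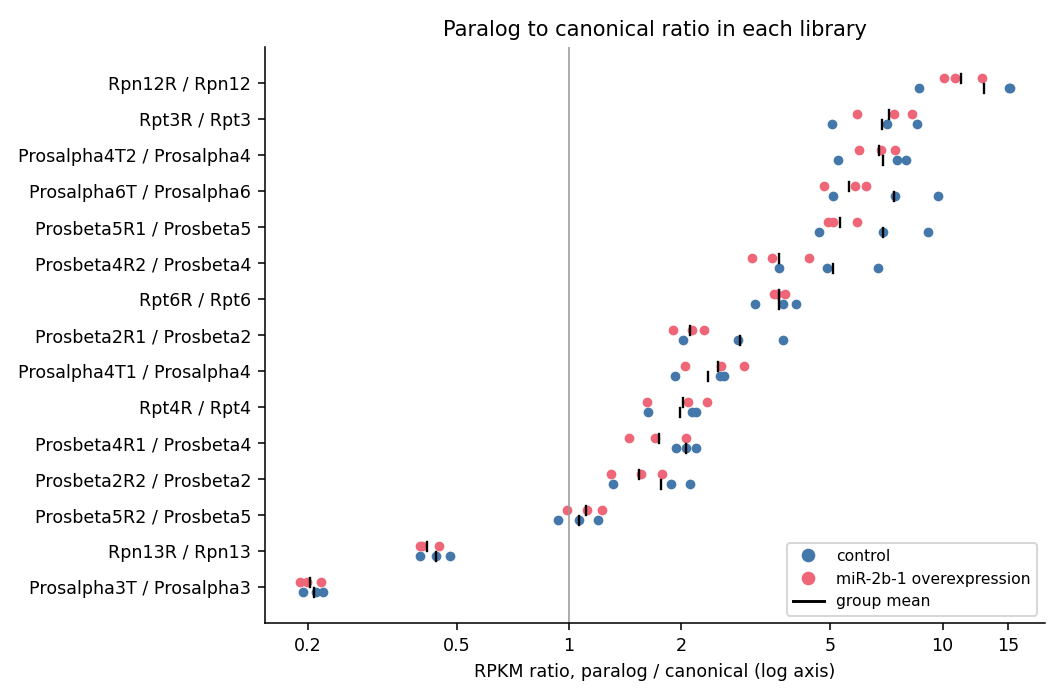
RPKM ratio of each testis paralog to its canonical subunit on a log axis, 1 point per library with control below and miR-2b-1 overexpression above each line, and black ticks at the group means. Of 15 pairs, 12 lie above 1 in all 6 libraries, Prosalpha3T and Rpn13R lie below 1 in all 6, and the groups overlap in every pair.

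Transcript of a position, that is the canonical subunit plus its paralogs, was then summed. In the 20S core, the 7 positions without a paralog had 203 to 340 RPKM (means of 6 libraries). The 6 measurable positions with a paralog had 23.6 to 241 RPKM from the canonical gene alone and 210 to 361 RPKM with the paralogs added. In the separate libraries, the median was 227 to 251 RPKM for positions without a paralog, 30.0 to 49.95 RPKM for the canonical genes of the others, and 243 to 284 RPKM for their totals. Over the 13 positions, the SD of the log2 level was 1.29 to 1.66 for the canonical genes and 0.250 to 0.361 for the totals. Adding a paralog can only raise a total, and no test was made of where it ends. Paralogs held 90.1% of the total at Prosalpha4 (range over libraries 87.8% to 91.4%), 87.4% at Prosbeta5, 86.1% at Prosalpha6, 85.8% at Prosbeta4, 80.0% at Prosbeta2 and 17.0% at Prosalpha3.

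The 19S particle was less even. Its 13 positions without a paralog had 26.1 to 203 RPKM, and the 5 with a paralog had 11.2 to 172 RPKM from the canonical gene and 79.1 to 252 RPKM in total. Over its 18 positions, the SD of the log2 level was 1.02 to 1.21 for the canonical genes and 0.735 to 0.917 for the totals. Median totals of 160 to 191 RPKM were above the 83.3 to 103 RPKM of the positions without a paralog. Paralogs held 92.1% of the total at Rpn12, 87.2% at Rpt3, 78.4% at Rpt6, 66.3% at Rpt4 and 30.0% at Rpn13.

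**Figure D3:**
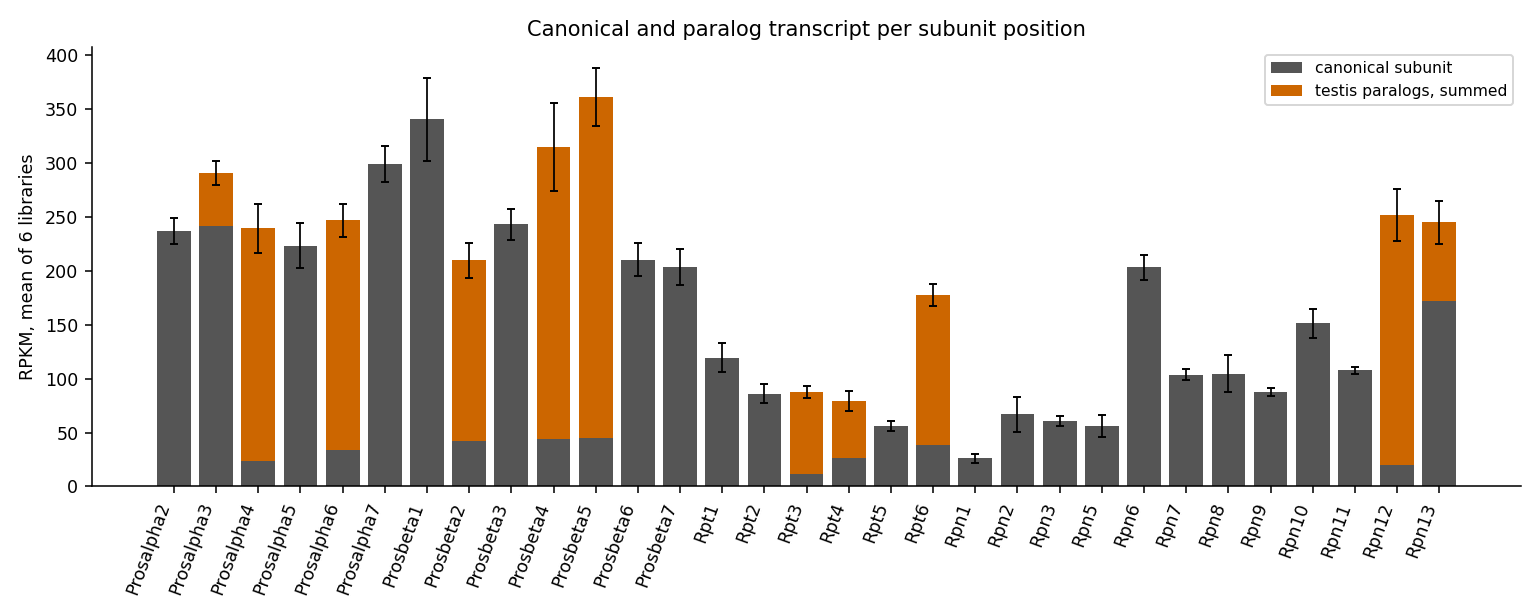
Mean RPKM over 6 libraries at each subunit position, Prosalpha1 left out, with the canonical subunit in grey, its summed testis paralogs stacked in orange, and the SD of the total as bars. The 20S totals lie between 203 and 361 RPKM, while the 19S totals run from 26.1 RPKM at Rpn1 to 252 RPKM at Rpn12.

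Whether miR-2b-1 overexpression changed these genes was tested in edgeR (quasi-likelihood F test, p-values adjusted by Benjamini-Hochberg over all genes). At an adjusted p under 0.05, 0 of the 48 members were called, while 2.81% of all 17559 genes were. The shares of all genes in this report include genes with few or 0 counts. With an edgeR filter on low counts (filterByExpr), 437 of the 12441 genes kept were called, and 0 of the 46 members kept. The smallest adjusted p of a member was 0.375, for Prosbeta1. At an unadjusted p under 0.05 in edgeR, 0 of 48 members passed, against 14.7% of all genes. DESeq2 called 0 of the 46 members it tested, and 743 of 12333 genes. In DESeq2, 1 member (Prosbeta1) passed without adjustment, where the share over all genes is not given here. The median log2 fold change was 0.06 for the 32 canonical subunits (21 positive) and -0.05 for the 16 paralogs (7 positive), beside 0.02 for the 12488 genes with a mean of at least 10 counts. Standard errors of single members ran from 0.126 to 0.204 outside the Prosalpha1 position, and the class medians were not tested.

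The intervals give the range of change that each member's data allow. For the 46 members outside the Prosalpha1 position, every 95% interval of the log2 fold change lay within -1 and 1, and 33 lay within -0.5 and 0.5. The lowest bound was 62.9% of the control level, for Prosbeta4R2, and the highest 169%, for Rpn2. These bounds describe each member's own interval and are not a limit of detection. For Prosalpha1 and Prosalpha1R the intervals reached from -0.83 to 2.16 and from -1.13 to 1.33, so nothing can be said of them.

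**Figure D4:**
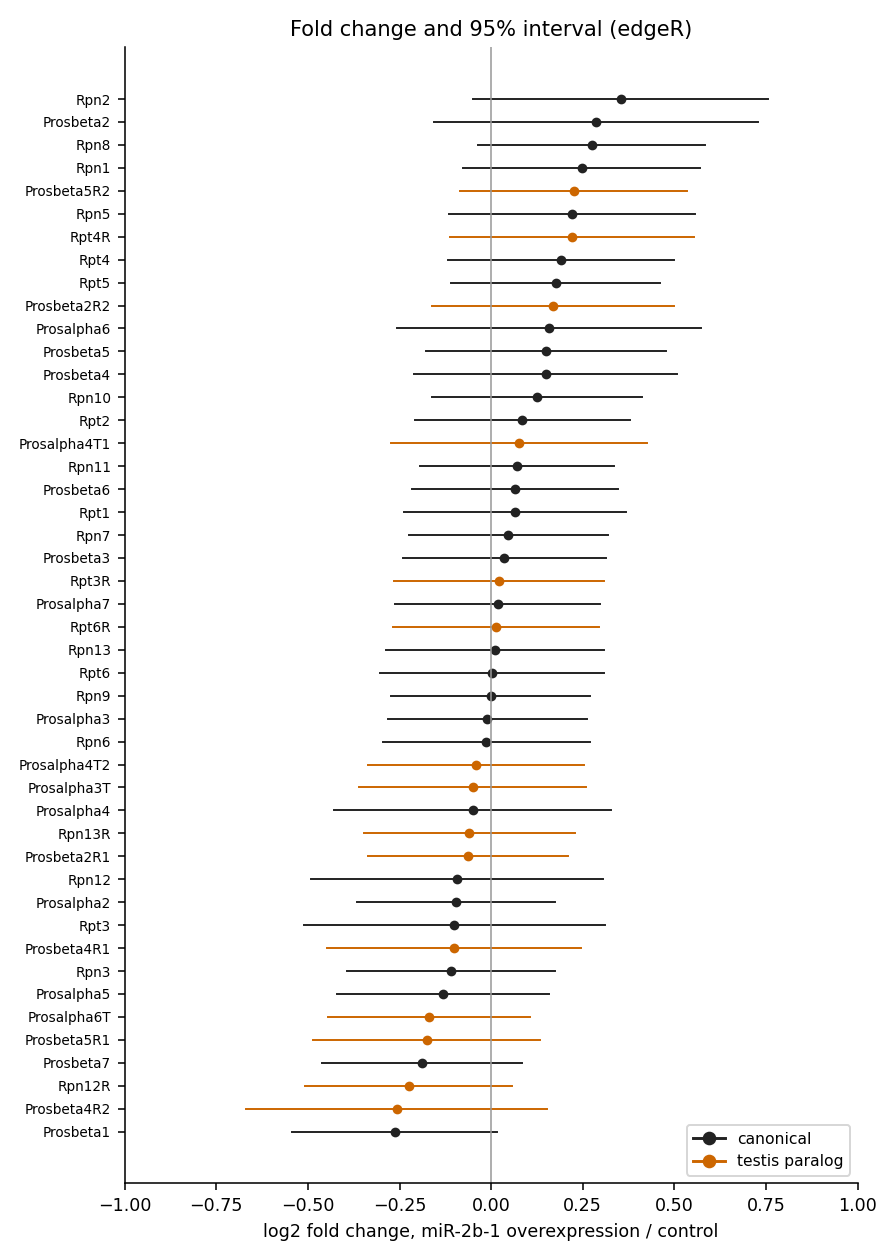
Log2 fold change of miR-2b-1 overexpression over control for 46 members, with the 95% interval from the edgeR fit, in black for canonical subunits and orange for testis paralogs. Every interval crosses 0, and all lie between -0.67 and 0.76.

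The members with the highest fold changes were 19S base and lid genes and a 20S gene. Rpn2, the base scaffold, had 49.8, 60.2 and 65.9 RPKM in the control and 97.0, 70.5 and 57.2 RPKM under overexpression, a fold change of 0.35 ± 0.186 on the log2 scale (SE from edgeR, adjusted p = 0.418). Rpn8 had 91.1, 96.1 and 96.6 RPKM in the control and 134, 116 and 93.1 RPKM under overexpression, a fold change of 0.27 ± 0.146 on the log2 scale (SE from edgeR, adjusted p = 0.415). In both, overexpression replicate 1 stood highest and replicate 3 lay within the control range. Prosbeta2, with its values given above, had a fold change of 0.29 ± 0.204 on the log2 scale (SE from edgeR, adjusted p = 0.609), and its groups overlapped. Single libraries moved these values. Rpn2 had 0.12 without overexpression replicate 1 and 0.51 without overexpression replicate 3, and Rpn8 had 0.14 and 0.40 in the same fits. Prosbeta2 had 0.55 without control replicate 1 and 0.079 without control replicate 3.

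At the lower end, Prosbeta1 had 354, 379.6 and 381 RPKM in the control and 282, 320.5 and 325 RPKM under overexpression, a fold change of -0.26 ± 0.132 on the log2 scale (SE from edgeR, adjusted p = 0.375). Its groups did not overlap, but the difference was not past the threshold. Prosbeta4R2 had a fold change of -0.26 ± 0.190 on the log2 scale (SE from edgeR, adjusted p = 0.618) and Rpn12R a fold change of -0.22 ± 0.134 on the log2 scale (SE from edgeR, adjusted p = 0.487), both with overlapping groups. Prosbeta4R2 had -0.084 without overexpression replicate 1 and -0.50 without overexpression replicate 3. In all, the groups did not overlap for 5 of the 48 members, against 19.9% of all genes. Prosalpha2, Prosbeta1 and Prosbeta7 were lower and Rpt4 and Rpn11 were higher under overexpression in this sense. For Prosbeta7 the levels were 206, 229 and 214 RPKM in the control and 192, 194 and 184 RPKM under overexpression, with a fold change of -0.19 ± 0.129 on the log2 scale (SE from edgeR, adjusted p = 0.574). Rpt4, Rpn11 and Prosalpha2 had log2 fold changes of 0.19, 0.07 and -0.10.

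The balance between a paralog and its canonical subunit was compared between the groups as well. The log2 count ratio was lower under overexpression in 10 of 15 pairs and higher in 5, with a median difference of -0.07 and a range of -0.45 to 0.09. The pairs are not independent, as Prosalpha4, Prosbeta2, Prosbeta4 and Prosbeta5 each enter 2 of them. Groups overlapped in all 15. The lowest values were those of Prosbeta4R2, Prosbeta2R1, Prosalpha6T and Prosbeta5R1, at -0.45, -0.40, -0.36 and -0.33, beside pooled SDs of 0.36, 0.33, 0.36 and 0.36. Without control replicate 3 the same pairs had -0.23, -0.19, -0.14 and -0.10, and without control replicate 1 they had -0.67, -0.63, -0.61 and -0.59. In exact two-sided permutation tests, which cannot go below p = 0.1 with 3 against 3, the smallest p was 0.2, and the smallest p adjusted over the 16 pairs was 0.862. No pair could have passed a threshold of 0.05 in this design, so the permutation tests do not tell whether the balance shifted. The ratio of Prosalpha6T, for instance, took values of 5.09, 7.43 and 9.73 in the control and of 4.80, 5.81 and 6.24 under overexpression, so the control libraries covered most of the range of the other group.

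The control libraries differed among themselves in the canonical subunits that have a paralog. The median log2 deviation from each gene's mean was taken per library. For the 11 canonical subunits with a paralog it took values of 0.19, -0.08 and -0.20 in the control (replicates 1, 2 and 3), and 0.06, 0.02 and 0.05 under overexpression. Of these 11 genes, 7 were highest in control replicate 1 and 6 were lowest in control replicate 3. For the 20 canonical subunits without a paralog the values were -0.02, -0.00 and -0.01 in the control and 0.06, 0.04 and -0.10 under overexpression. The 15 paralogs had 0.00, 0.10 and -0.04 in the control and -0.04, 0.09 and -0.14 under overexpression. Control replicates 1 and 3, which differed most in the canonical genes with paralogs, were both rich in accessory gland RNA. Muscle genes summed to 421, 326 and 206 CPM in control replicates 1, 2 and 3, in the same order as these genes. Fat body genes had the same order, with 144, 118.5 and 71.5 CPM. Under overexpression muscle genes summed to 124 to 140 CPM and fat body genes to 70.6 to 95.5 CPM, where the canonical genes with a paralog had deviations of 0.02 to 0.06. The part of muscle, fat body or accessory gland RNA in the difference was not tested. With the accessory gland level as a covariate, 0 members were called. The fit without the 3 libraries richest in it also called 0, but it leaves 1 control library against 2 overexpression libraries, whose spread is assumed for the lone control, so it says little.

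**Figure D5:**
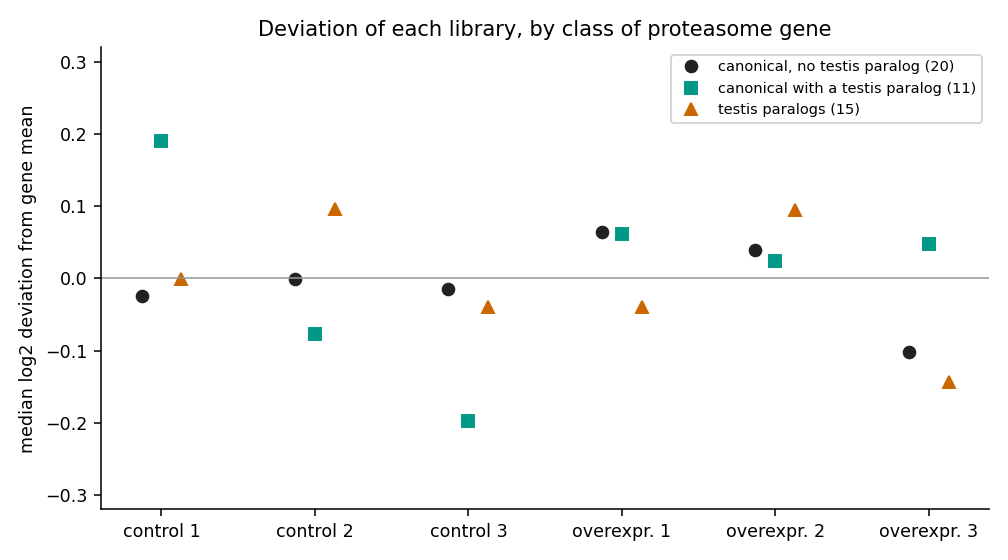
Median log2 deviation of each library from the gene means for canonical subunits with no testis paralog (circles), canonical subunits with one (squares) and testis paralogs (triangles), Prosalpha1 and Prosalpha1R left out. The squares run from 0.19 in control replicate 1 to -0.20 in control replicate 3, and the overexpression libraries lie within that span.

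Genes that work with the proteasome were read from the same fit. Of 12 genes for proteasome assembly and regulation, 1 was called higher and 0 lower, beside 2.81% of all genes called in either direction. This was Sem1 (FBgn0266666, chromosome 2L, 7063986 to 7064467), a small subunit of the 19S lid whose symbol falls outside the naming rule. It had 65.6, 66.7 and 66.9 CPM in control replicates 1, 2 and 3 and 93.4, 109 and 98.2 CPM under overexpression. The groups did not overlap, with 66.4 ± 0.715 CPM against 100.03 ± 7.75 CPM (SD, n = 3 each), which edgeR put at 0.59 ± 0.135 on the log2 scale (SE, adjusted p = 0.0218). In edgeR fits that left out 1 library its log2 fold change stayed between 0.54 and 0.64, while the adjusted p ranged from 0.0130 to 0.146 and was above 0.05 without control replicate 1, control replicate 2 or overexpression replicate 2. With upper-quartile normalization the value was 0.52 (edgeR adjusted p = 0.0706), and with a prior that is not robust the adjusted p was 0.0499. Without the 3 libraries richest in accessory gland RNA, where the control is 1 library, it was 0.60 (edgeR adjusted p = 0.125). Of its 427 exon bases, 37 overlap Nuf2 on the opposite strand.

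The other members of that list were not called. PI31, a proteasome regulator that acts in spermatids, had 571, 613 and 666 CPM in the control and 438, 511 and 552 CPM under overexpression, with a log2 fold change of -0.30 (edgeR adjusted p = 0.335). Its F-box partner ntc had a log2 fold change of -0.25 and the assembly chaperone Pomp one of -0.23. Usp14, a deubiquitinase of the 19S particle, had 0.31, maf-S had 0.27, and cnc, the activator of proteasome genes in stress, had 0.01. Over the 12 genes of the list the median was -0.03, and 5 values were positive. For PI31, ntc and Pomp every overexpression library was below every control library, and for maf-S every one was above. Groups did not overlap in 19.9% of all genes.

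None of the remaining pathway lists held a called gene, where 2.81% of all genes were called. Among 17 genes of ubiquitin and its transfer the median log2 fold change was -0.02, and 7 values were positive. The lowest p values there were those of Uba1, the ubiquitin activating enzyme, with 180, 187 and 196 CPM in the control and 339.7, 263 and 209 CPM under overexpression (log2 fold change 0.53, edgeR adjusted p = 0.105), and of vih, a conjugating enzyme (-0.26, adjusted p = 0.429). Uba1 and Uba3 were higher in every overexpression library than in any control library, while Ubc2, eff, vih and APP-BP1 were lower. Groups did not overlap in 19.9% of all genes. Among 18 cullin ligase genes the median was 0.25, and 15 values were positive. Over the 12488 genes with a mean of at least 10 counts the median was 0.02, and 6468 values were positive. The lowest p values of the cullin list were those of CSN4, a COP9 signalosome subunit (0.55, edgeR adjusted p = 0.0713), and SkpC (0.56, adjusted p = 0.151). SkpF went the other way, with -0.40 (edgeR adjusted p = 0.183). Among 12 genes of the spermatid cullin-3 and caspase pathway the median over the 10 with counts was 0.13, with the lowest p for Dcp-1 (0.47, edgeR adjusted p = 0.386) and Dark (0.55, adjusted p = 0.471), and the 3 segregase genes found had a median of 0.05, led by Npl4 and p47 (0.06 and 0.05). In the spermatid list, Roc1b and klhl10 had 0 counts in all 6 libraries. All 506 exon bases of Roc1b overlap Cdc5 on the opposite strand, and klhl10 lies on an unmapped scaffold, so both are listed at 0 with no statement on their level.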

How the data were processed

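RNA-seq of testes was used, with 3 samples a group. The authors aligned trimmed reads with RNA STAR, counted them per gene with featureCounts on a BDGP6 annotation and deposited raw counts, per the labels and the paper's methods. Strand and multi-mapping settings are not given in the sources used here. A deposited table of the authors' comparison (log2 fold change, log2 CPM, F, p and FDR) and 6 columns of normalized values were not used. Rows that name no gene numbered 0, and all 15 library pairs differed beyond sampling noise (chi-square at least 28 per degree of freedom).

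All 17559 genes were fitted with edgeR 4.0.16 in R 4.3.3 (TMM, older quasi-likelihood method, robust prior, group alone, Benjamini-Hochberg adjusted p under 0.05), with no filter on low counts. A standard error is the log2 fold change divided by the square root of F, and an interval uses the fit's degrees of freedom. RPKM is the TMM-scaled CPM over the length of all exons from Ensembl release 115, in which 17253 genes matched by identifier, the 48 members among them. The deposited counts rest on an older annotation, with the same assembly. The log2 count ratios of a paralog to its canonical subunit, compared between the groups, used counts plus 1 and exact permutation tests. The RPKM ratios had nothing added and were not tested. No separate cultures or crosses are stated for the replicates, so p-values measure the spread between these libraries.

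The members and gene lists were chosen with earlier results of these data known. Genes were named by rule: every member, with values per library for paralogs, their canonical subunits, called members and the 3 highest and 3 lowest fold changes, and from the pathway lists the called genes or else the 2 with the lowest p. Genes outside this rule were chosen after their values were seen. They were the members whose groups did not overlap, PI31, ntc, Pomp, Usp14, maf-S, cnc, Uba3, Ubc2, eff, APP-BP1, SkpF, Roc1b and klhl10. The germ line markers were also named after their values were seen. Of 117 listed genes, 109 were found by symbol. The alternatives tried were DESeq2 1.42.0, normalization by RLE or upper quartile, a replicate block, a minimum of 10 counts per sample, filterByExpr, the non-robust prior, edgeR's newer quasi-likelihood fit, an accessory gland covariate, each library left out, an adjusted p under 0.01, 0.5 counts added and other gene lengths. A fit without the 3 libraries richest in accessory gland RNA was added after seeing the data. A planned search of promoters for motifs needs sequence, which was not used here.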

Additional observations from a re-analysis of the deposited data

How the results depend on the processing

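In every alternative run, 0 canonical subunits and 0 testis paralogs were called. At an unadjusted p under 0.05 there were 0 or 1 members, apart from 6 without overexpression replicate 3 (Rpt4R, Rpn1, Rpn2, Rpn5, Rpn8 and Prosbeta4R2). There the smallest adjusted p of a member in edgeR was 0.0692. That fit called 923 of all 17559 genes, against 493 in the main fit. Its share of all genes passing unadjusted is not given here, so the 6 are not read as a result about the members. The fit without the 3 libraries richest in accessory gland RNA is left out of these counts. It has 1 control library against 2, and the lone library is assumed to vary like the others. Rpn2 had a log2 fold change of 0.48 there and Prosbeta4R2 one of -0.53. Outside the Prosalpha1 position, the median log2 fold change was 0.05 for the canonical subunits and -0.05 for the paralogs. The canonical median was -0.023 with upper-quartile normalization, where 12 of 31 values were positive in place of 20, so no direction is given for the class. Over the fits without 1 library it ran from 0.016 to 0.073, and the paralog median from -0.055 to -0.015. Of 464 values of 29 named members, 37 changed sign. For Rpt3 and Rpn12 this exceeded a standard error. Over the fits without 1 library, Rpt3 ran from -0.25 to 0.15 and Rpn12 from -0.21 to 0.15, the highest of each without control replicate 1, and with the lone control library they were 0.22 and 0.13. The cause was not tested. Over all genes, edgeR called 493 (227 higher, 266 lower), 637 with upper-quartile normalization (223 higher, 414 lower), 236 with the non-robust prior, 205 to 923 without 1 library and 956 without the 3 libraries, and DESeq2 called 743. With the replicate block the medians were 0.04 and -0.05 and 0 members were called. Deviations of same-numbered libraries correlated at -0.61, 0.42 and 0.54 across genes, so the numbers were not taken to pair the libraries. Prosalpha1 and Prosalpha1R had means of 8 and 10.2 counts, too few to compare.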
